A study of Homo sapiens with 6 samples.

Results

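The 65 genes described here are the protein-coding members of cancer-testis and meiosis gene families that could be measured in C4-2 cells, a castration-resistant subline of the human prostate cancer line LNCaP. They were taken by symbol, as the protein-coding genes whose names begin with PRAME, GAGE, CTAG, PNMA, SYCE, SYCP or TEX and a digit, with the brightest probeset standing for each gene. They make up 65 of the 14812 genes tested, of which 11911 are protein-coding. The same name rule also covered MAGE-A to MAGE-H, SSX, XAGE, PAGE and SPANX, and 0 protein-coding genes with those names were among the named probesets, so these families are not analysed here. The members comprised 27 TEX genes, 14 PRAMEF genes with PRAME itself, 7 GAGE genes, 6 PNMA genes, 4 SYCP and 3 SYCE genes, CTAG1A and CTAG2, and CTAGE1, which shares the first letters of the CTAG name but belongs to another family. Of the 65, 16 lie on the X chromosome and 19 on chromosome 1.

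The study used 6 whole-transcript Affymetrix arrays, 2 for each of 3 groups, in cells kept in medium that contained hormones. In the knockdown group DNA-PKcs, the catalytic kinase of the complex that joins broken DNA ends, had been transiently depleted, with siRNAs targeting PRKDC present for 96 h. The NU7441 group had received 1 µM of this small-molecule inhibitor of the DNA-PKcs kinase for 24 h, and the control group is labelled as treated with DMSO, the solvent. Whether the control and NU7441 cultures were also transfected with a control siRNA pool is not stated per sample, so depletion and transfection cannot be told apart, and 1 pair of control arrays served both treatments although these differed in length. PRKDC was not among the named probesets, and the labels alone define the knockdown. The labels call the arrays of a group biological replicates without saying how the cultures were separated, so p-values measure the spread between these samples only, and lower RNA per cell and fewer cells with the RNA cannot be told apart.

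Cancer-testis genes are active in germ cells and silent in most adult tissues, commonly through DNA methylation of their promoters, and many of them become active again in tumours, where their protein fragments can be seen by T cells. Meiosis genes of the SYCP and SYCE families build the synaptonemal complex, the protein zipper that holds paired chromosomes together while they recombine. Lateral elements contain SYCP2 and SYCP3, the transverse filament is SYCP1, and the central element contains the SYCE proteins and TEX12. The TEX names mark transcripts first found in testis, and several TEX genes are widely expressed and act outside the germ line.

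The C4-2 cells carried the markers of their labelled origin. The 6 measured of 10 luminal prostate markers, KLK3 and FOLH1 among them, had a summed intensity of 2686 to 2802 in knockdown, 3231 to 3559 in NU7441 and 2821 to 2924 in control cells. The 6 did not move together under NU7441. Their log2 differences from control ran from -0.44 to 0.515, 4 positive and 2 negative, and 1 passed the test. All 11 measured of 12 germ cell markers, including DDX4 and PRM1, stayed under an intensity of 64 on every array, with sums of 274 to 291 in knockdown, 238 to 247 in NU7441 and 332 to 358 in control cells. Of these, KLHL10, ACR and DAZL fell under NU7441 and ACR fell in the knockdown. The 3 measured basal markers and the 2 stromal markers also stayed under 64, as did 4 of 5 Sertoli and Leydig cell markers and 1 of 2 leukocyte markers; AMH (64.9 to 148) and CD68 (115 to 160) were the exceptions. Among these lists KLK3 rose under NU7441, LUM and GATA4 fell, and the part of any other cell type in the results was not tested.

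The deposited intensities never go below 16, and the arrays differed near that floor. The median over all probesets was 28.4 and 27.6 on the knockdown arrays, 24.6 and 26.0 on the NU7441 arrays, and 31.5 and 31.6 on the control arrays. Within 0.01 of the floor lay 2 and 1 of the 65 members on the knockdown arrays, 6 and 4 on the NU7441 arrays, and 0 on either control array. A fold change is therefore limited from below in dim genes, and 38 members had a mean at or below 32. The NU7441 arrays also agreed least with each other, with a median SD over genes of 0.215 on the log2 scale, against 0.139 in knockdown and 0.087 in control.

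Under NU7441, 9 of the 65 members rose and 13 fell at an adjusted p under 0.05, compared with 10.8% of all genes tested that rose and 22.4% that fell. The members' median log2 fold change was -0.26, beside -0.23 over all genes. In the knockdown 3 members rose and 3 fell, where 0.284% of all genes rose and 0.486% fell, and the medians were -0.08 for members and -0.09 for all genes. Between the treatments, 3 members were higher and 2 lower in knockdown than in NU7441 cells, where 5.83% of all genes were higher and 2.84% lower. The members' share of calls under NU7441 was thus close to that of the array (33.8% of members, 33.2% of all genes), and the few members that moved far are described by family below. Both treatment contrasts use the same control arrays, so their values are given side by side and are not independent.

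How many calls were made depended on the control arrays, on the scaling and, in the knockdown, on which arrays entered the fit. Fitted on knockdown and control arrays alone, knockdown against control gave 15 member calls. Over all genes that fit called 2843, against 114 in the main fit. Without either control array 11 of the 22 NU7441 calls remained; CTAG1A, PNMA5, PNMA8A, TEX264, TEX30, TEX11, TEX12, TEX22, TEX46 and TEX50 were lost in both cases, GAGE12C without control replicate 1 and PRAMEF18 without control replicate 2. Without any 1 control or knockdown array the knockdown against control lost every member call. The knockdown against NU7441 did so without either knockdown array. Calls over all genes also fell steeply in these fits and, without a control array, in NU7441 against control. The loss is thus not particular to the members. The median of all genes under NU7441, -0.23 as deposited, was 0.01 after quantile normalization and 0.08 after median centring. With either scaling 10 members rose and 8 fell under NU7441, PNMA5, PNMA8A, TEX11, TEX12 and TEX50 being lost. Median centring gave 5 higher and 3 lower members in the knockdown against control, and 2 higher and 8 lower in knockdown against NU7441 cells. Over all genes, median centring took the calls from 114 to 423 in the knockdown and from 1284 to 1528 between the treatments. Under NU7441 they went from 4917 to 4154 with quantile normalization and 4396 with median centring.

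**Figure D1:**
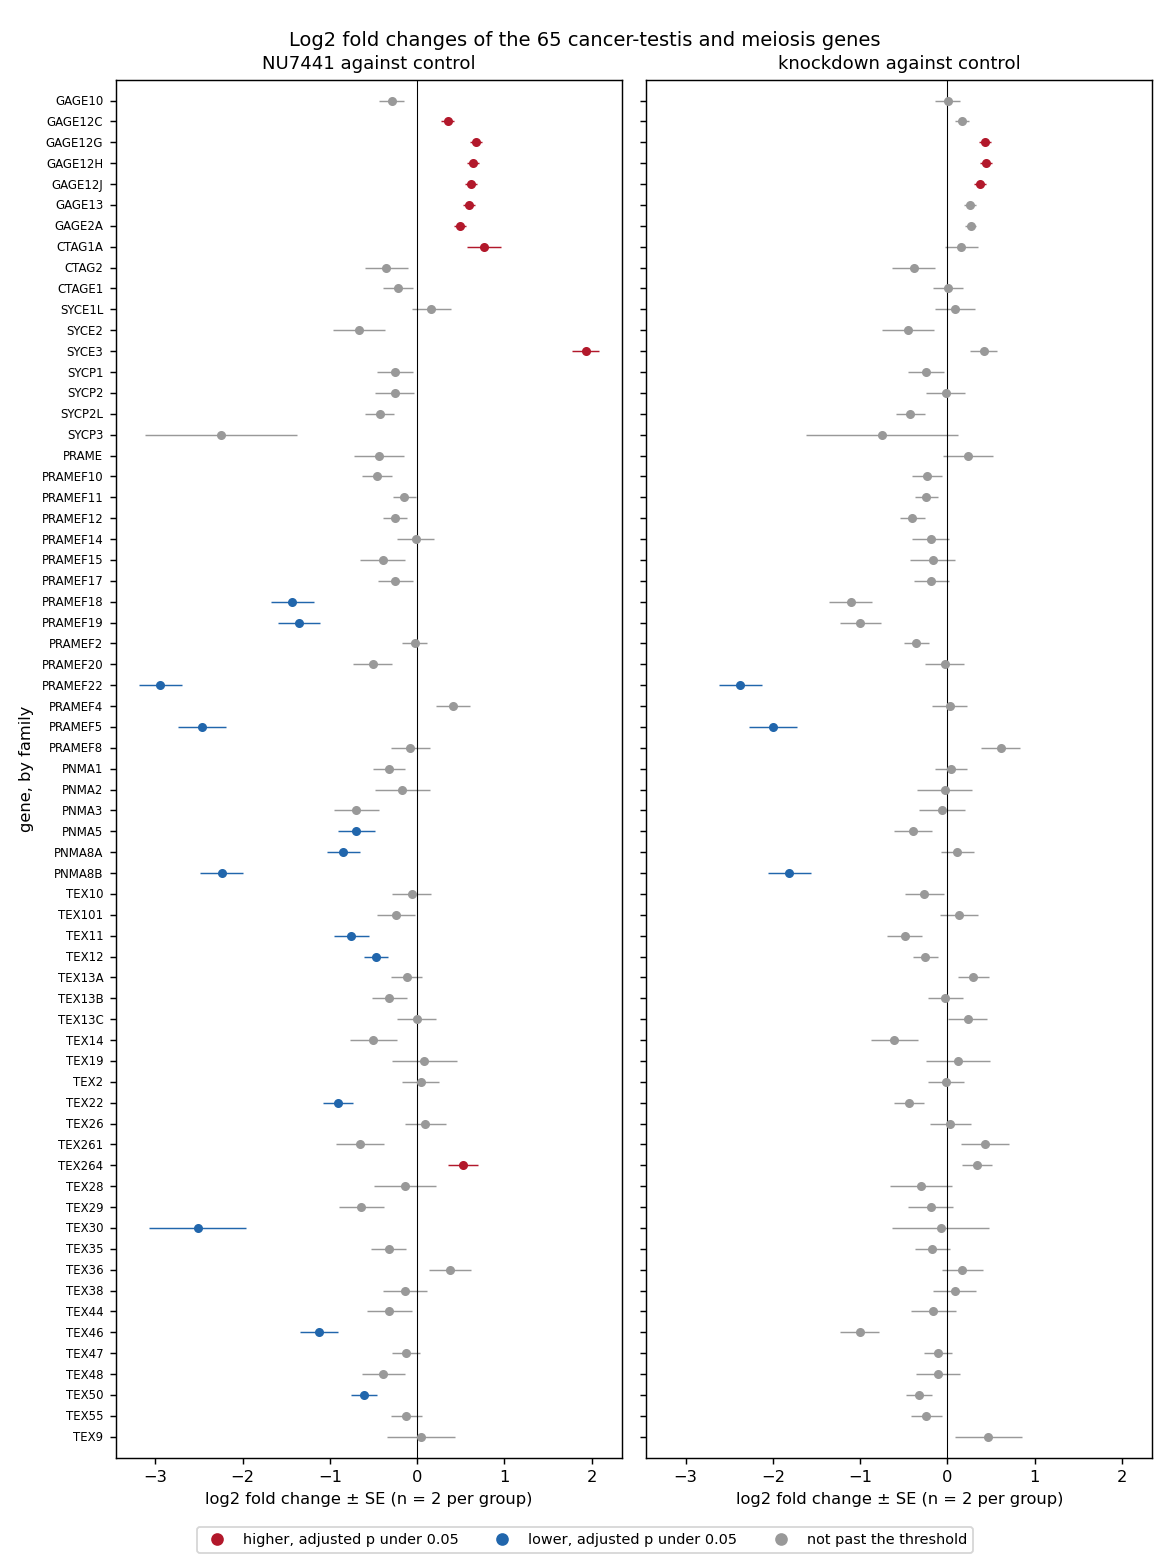
Log2 fold change with limma's moderated SE (n = 2 arrays per group) for each of the 65 members, under NU7441 on the left and in the knockdown on the right, each against control. Red marks genes higher and blue genes lower at an adjusted p under 0.05: 9 and 13 under NU7441, 3 and 3 in the knockdown.

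Among the synaptonemal complex genes, SYCE3 was the one that moved clearly. SYCE3 encodes a central element protein needed to start synapsis in mouse meiosis. Its intensity was 552 and 476 in NU7441 cells, against 128 and 142 in control cells. Both NU7441 arrays lay far above both controls, a log2 fold change of 1.93 ± 0.16 or 3.81-fold (adjusted p = 0.00027), the second highest rise of all 14812 genes. In knockdown cells SYCE3 read 182 and 177, above both controls, but the difference of 0.42 ± 0.16 did not pass the test (adjusted p = 0.194). The knockdown therefore lay below NU7441 by a log2 difference of -1.51 ± 0.16 (adjusted p = 0.00181). In a fit of knockdown and control arrays alone, and with array weights per group, SYCE3 was called higher in knockdown than control cells.

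The promoter window of SYCE3 is shown because this gene rose most among the members. It comes from RefSeq on GRCh38.p14, chr22:50562870-50563169 on the minus strand, and runs from 250 bases before to 50 bases after the gene's start, 300 bases in all. Capitals mark the GC box GGGCGG on either strand.
SYCE3: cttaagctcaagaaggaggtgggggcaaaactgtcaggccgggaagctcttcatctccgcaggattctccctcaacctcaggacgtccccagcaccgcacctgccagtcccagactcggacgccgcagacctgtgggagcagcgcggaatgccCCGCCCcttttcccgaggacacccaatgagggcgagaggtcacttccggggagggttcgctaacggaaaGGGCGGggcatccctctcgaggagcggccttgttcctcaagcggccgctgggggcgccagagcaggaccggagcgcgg
The window holds 24 CpG, beside a median of 14 over all 35116 promoters of the table, of which 44.95% hold a GC box.

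No other SYCE or SYCP gene passed the test in any comparison. SYCP3, a lateral element protein, read 151 and 174 in knockdown cells, 16 and 207 in NU7441 cells, and 268 and 278 in control cells. The NU7441 arrays disagreed with each other, 1 close to 16 and 1 near the knockdown arrays, and the fitted difference from control of -2.25 ± 0.87 on the log2 scale did not pass the test (adjusted p = 0.0724). Without NU7441 replicate 1 the log2 difference was -0.40 (adjusted p = 0.0461), and without NU7441 replicate 2 it was -4.09 (adjusted p = 1.66e-10), so the size rests on a single array. SYCE2, which forms fibres with TEX12 in the central element, ranged from 18.3 to 39.8 over the 6 arrays. SYCP1, SYCP2, SYCP2L and SYCE1L stayed between 16 and 35.3. TEX12 fell under NU7441 by 0.47 ± 0.14 on the log2 scale (adjusted p = 0.0295), with 16.4 and 16 in NU7441 cells against 22.7 and 22.3 in control cells, a change that takes place just above the floor.

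Of the 7 GAGE genes, 6 had intensities above 1000 on every array, and these 6 rose under NU7441. They encode small, largely unstructured proteins from tandem copies on the X chromosome. GAGE12G read 1492 and 1440 in knockdown cells, 1722 and 1740.0 in NU7441 cells, and 1060.0 and 1113 in control cells. The 3 groups did not overlap, with NU7441 highest and control lowest. GAGE12G rose by 0.67 ± 0.07 on the log2 scale under NU7441 (1.59-fold, adjusted p = 0.00061) and by 0.43 ± 0.07 in the knockdown (1.35-fold, adjusted p = 0.0437). The knockdown calls of GAGE12G, GAGE12H and GAGE12J were lost under 8, 7 and 8 of 16 other ways of processing, among them no mean-variance trend and each control or knockdown array left out.

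GAGE12H showed the same order, with 1523 and 1482 in knockdown, 1689.8 and 1768 in NU7441 and 1090.2 and 1127 in control cells. GAGE12J read 1502 and 1476 in knockdown, 1804 and 1717 in NU7441 and 1137 and 1165 in control cells. Their log2 rises under NU7441 were 0.64 and 0.61 (adjusted p = 0.000678 and 0.000771), and in the knockdown 0.44 and 0.37 (adjusted p = 0.0423 and 0.0484). GAGE13 read 1544 and 1469 in knockdown, 1945 and 1856 in NU7441 and 1251 and 1268 in control cells. It rose by 0.59 under NU7441 (adjusted p = 0.000866), its log2 difference of 0.26 in the knockdown did not pass (adjusted p = 0.0926), and it was the GAGE gene that was lower in knockdown than in NU7441 cells at the threshold (log2 difference -0.34 ± 0.07, adjusted p = 0.0206). GAGE2A rose by 0.49 (adjusted p = 0.00164) and GAGE12C by 0.35 ± 0.08 (adjusted p = 0.00995) under NU7441, while their knockdown differences of 0.27 and 0.17 did not pass.

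These 6 genes are not 6 independent observations, because near-identical copies can share probes. Over 11 bright probesets named for them, log2 differences from control ran from 0.35 to 0.67 under NU7441 and from 0.17 to 0.44 in the knockdown, and both arrays of each treatment lay above both controls on all 11. Apart from the probeset chosen for GAGE12C, its other 3 differed by at most 0.0581% of the intensity on any array. GAGE10, a more diverged copy, stayed between 16.7 and 21.9 on all arrays and did not pass the test. Bright genes rose often in this comparison: 39% of the 1338 genes with a mean log2 intensity above 8 were higher under NU7441. Under the other scalings, offset, probeset rule and left-out arrays, the 6 genes' log2 differences under NU7441 lay between 0.29 and 0.99.

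**Figure D2:**
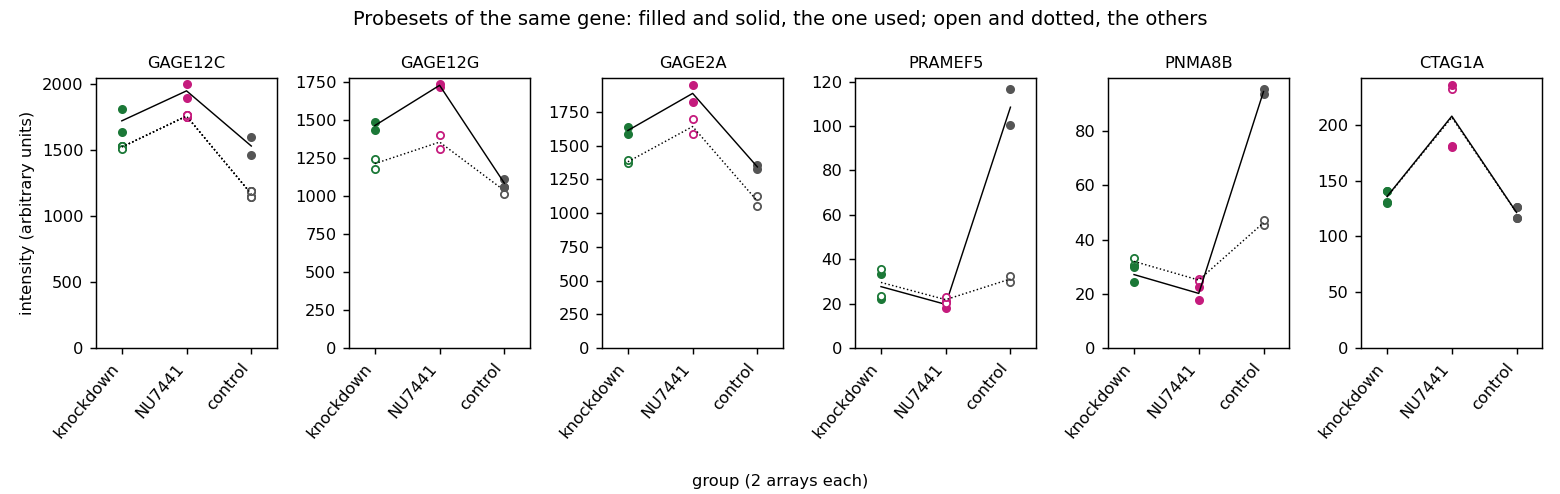
Intensity on each array (linear axes from 0) of all probesets named for 6 members that had more than 1, with knockdown, NU7441 and control from left to right; filled points and solid lines through the group means are the probeset used, open points and dotted lines the others. The GAGE12C, GAGE12G and GAGE2A probesets lie between 1013 and 1999 and share a direction, and those of PRAMEF5 and PNMA8B part in control cells.

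The promoter windows of GAGE12J and GAGE10 set a copy that rose beside the copy near the floor. Both come from RefSeq on GRCh38.p14, plus strand, at chrX:49321787-49322086 for GAGE12J and chrX:49303396-49303695 for GAGE10. Capitals mark the E-box CACGTG and the E2F core TCCCGC, searched on both strands.
GAGE12J: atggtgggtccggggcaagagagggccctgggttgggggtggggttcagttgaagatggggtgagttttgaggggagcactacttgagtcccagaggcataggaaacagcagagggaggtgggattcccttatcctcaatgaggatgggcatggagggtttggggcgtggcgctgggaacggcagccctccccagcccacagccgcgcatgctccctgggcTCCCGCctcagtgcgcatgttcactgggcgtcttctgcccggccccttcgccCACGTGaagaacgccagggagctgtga
GAGE10: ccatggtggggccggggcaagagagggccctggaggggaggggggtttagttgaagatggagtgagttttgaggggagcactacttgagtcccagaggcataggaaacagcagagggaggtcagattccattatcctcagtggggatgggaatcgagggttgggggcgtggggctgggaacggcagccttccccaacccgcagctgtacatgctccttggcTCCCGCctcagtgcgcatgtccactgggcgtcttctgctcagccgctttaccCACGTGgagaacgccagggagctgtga
Both motifs were present in all 7 GAGE windows, against 2.46% of all promoters in the table with both, 7.26% with the E-box and 26.89% with the E2F core. The 6 bright copies were 99.66 to 100% identical to each other over these windows (15 pairs), and GAGE10 was 90.24 to 90.57% identical to them (6 pairs). Letters of the motifs thus did not separate the dim copy from the bright ones, and the windows held 11 to 13 CpG.

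CTAG1A encodes NY-ESO-1, an antigen used as an immunotherapy target, and has a near-identical twin gene, so its signal may belong to either. Its intensity was 236 and 180.0 in NU7441 cells, against 117 and 126 in control cells, a log2 rise of 0.76 ± 0.19 (adjusted p = 0.0165). In knockdown cells it was 141 and 131, above both controls, with a log2 difference of 0.16 that did not pass the test (adjusted p = 0.683). A second CTAG1A probeset gave nearly the same values, with log2 differences of 0.76 and 0.16. CTAG2, the related LAGE-1 antigen, stayed between 40.1 and 63.2 and did not pass in any comparison. CTAGE1 lay between 17.7 and 24.1 on all arrays.

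The PRAMEF genes are a primate-expanded cluster of leucine-rich repeat proteins on chromosome 1. Under NU7441 4 of 14 (28.6%) fell, near the 22.4% of all genes, and PRAMEF22 and PRAMEF5 were called lower in the knockdown. Similar copies may share probes here too, so these 4 may not be independent observations. PRAMEF22 read 35.3 and 28.3 in knockdown cells, 20.9 and 21.7 in NU7441 cells, and 149.7 and 179.6 in control cells. Both treatments took it close to the floor and no array of either overlapped the controls. Its log2 fold change was -2.94 ± 0.25 under NU7441 (adjusted p = 0.000284) and -2.38 ± 0.25 in the knockdown (adjusted p = 0.00829). The size depends on the floor: with 16 taken off each value it was -4.81 under NU7441 (adjusted p = 0.00302) and -3.26 in the knockdown, where the call was lost (adjusted p = 0.103). Knockdown and NU7441 cells differed by 0.57, which did not pass (adjusted p = 0.166).

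PRAMEF5 read 33.3 and 22.0 in knockdown cells, 18.0 and 21.3 in NU7441 cells, and 100.4 and 116 in control cells. This probeset had log2 fold changes of -2.46 ± 0.27 under NU7441 (adjusted p = 0.000731) and -2.0 ± 0.27 in the knockdown (adjusted p = 0.0254). A second probeset named for PRAMEF5 read 35.4 and 23.7 in knockdown, 20.4 and 23.1 in NU7441 and 29.6 and 32.6 in control cells. Its log2 differences from control were -0.52 under NU7441 and -0.10 in the knockdown, so the probesets of PRAMEF5 disagree and the knockdown arrays overlap the controls on this one. The probeset used was the brighter one in control cells alone, so the choice by brightness favoured a fall. With the mean of both probesets the log2 fold change was -1.49 under NU7441 (adjusted p = 0.00401) and -1.05 in the knockdown, where the call was lost (adjusted p = 0.0835). PRAMEF18 read 16 and 20.8 in NU7441 cells, against 44.7 and 54.1 in control cells, and PRAMEF19 read 16 and 21.7 against 49.5 and 46.0. Both fell under NU7441, with log2 fold changes of -1.43 and -1.36 (adjusted p = 0.00381 and 0.00418), and in knockdown cells both lay between 19.2 and 27.5 with log2 differences of -1.11 and -1.0 that missed the threshold (adjusted p = 0.0701 and 0.0792). The other 10 PRAMEF genes stayed between 16 and 39 on every array and passed in no comparison.

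The window of PRAMEF5, from RefSeq on GRCh38.p14 at chr1:13253948-13254247 on the plus strand, is shown as an example of this cluster. It holds none of the 3 motifs, so nothing is in capitals.
PRAMEF5: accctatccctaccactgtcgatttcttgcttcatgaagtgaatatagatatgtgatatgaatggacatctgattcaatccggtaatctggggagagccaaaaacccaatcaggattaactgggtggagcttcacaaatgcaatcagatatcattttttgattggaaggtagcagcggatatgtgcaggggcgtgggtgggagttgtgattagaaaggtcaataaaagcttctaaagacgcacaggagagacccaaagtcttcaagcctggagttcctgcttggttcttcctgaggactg
All 12 PRAMEF windows in the table held 0 to 5 CpG and none of the 3 motifs. Their 66 pairs were 70.34 to 98.56% identical over the aligned stretch alone. That stretch was short in some pairs, with 18 of 21 bases identical for PRAMEF10 and PRAMEF18, so these values do not describe whole windows. Over all promoters, 33.67% held at most 5 CpG.

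PRAME itself, a cancer-testis antigen that serves as a substrate receptor of a ubiquitin ligase, passed the test in no comparison. It read 211 and 163 in knockdown, 157 and 86.1 in NU7441 and 142 and 175 in control cells, and each treatment overlapped the control. Both knockdown arrays lay above both NU7441 arrays, a log2 difference of 0.68 ± 0.28 that did not pass (adjusted p = 0.158). The log2 differences of PRAME from control were -0.44 ± 0.28 under NU7441 (adjusted p = 0.254) and 0.24 ± 0.28 in the knockdown (adjusted p = 0.684).

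**Figure D3:**
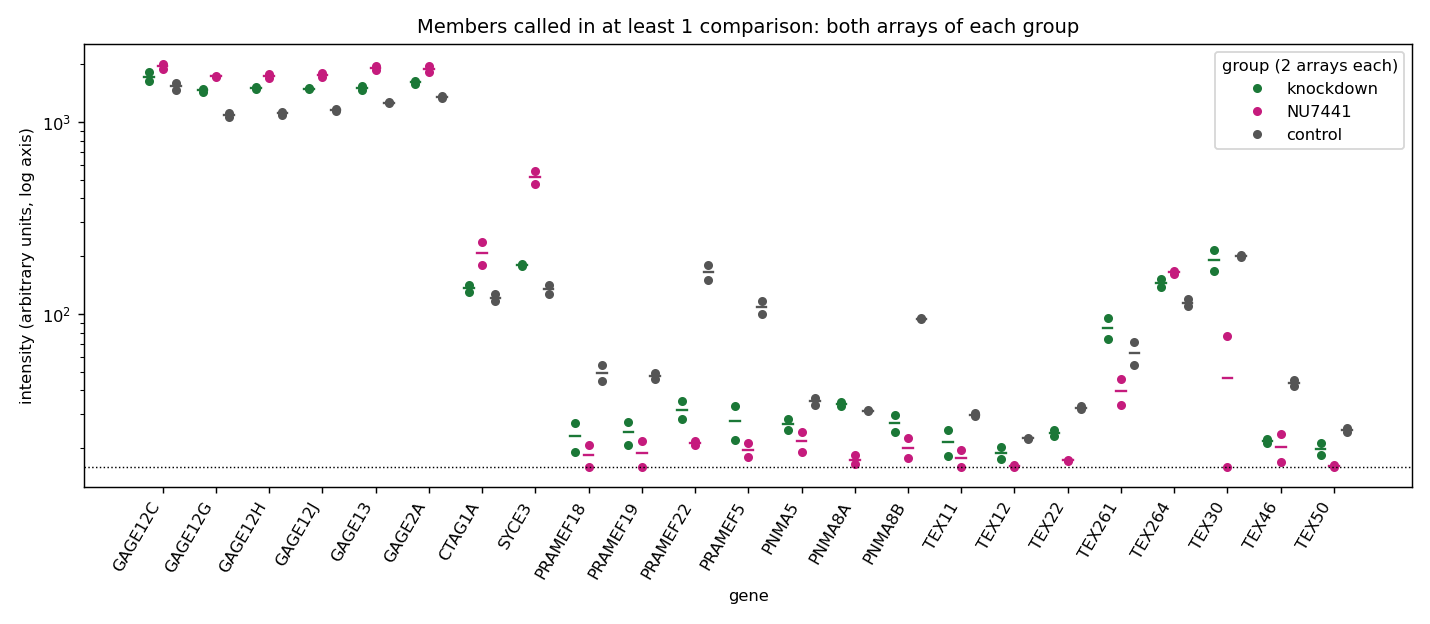
Intensity on each array, on a log axis, of the members that passed the test in at least 1 comparison, with knockdown, NU7441 and control from left to right; short bars are means of 2 arrays and the dotted line is the floor of 16. SYCE3 stands out in NU7441 cells at 476 to 552, and PRAMEF22, PRAMEF5 and PNMA8B stand out in control cells, between 93.6 and 180.

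PNMA genes encode proteins related to the Gag protein of retrotransposons, several of which are targets of antibodies in paraneoplastic neurological disease. PNMA8B read 24.2 and 29.9 in knockdown cells, 17.7 and 22.6 in NU7441 cells, and 93.6 and 95.5 in control cells. This probeset had log2 fold changes of -2.24 ± 0.25 under NU7441 (adjusted p = 0.000728) and -1.81 ± 0.25 in the knockdown (adjusted p = 0.0254), and with 16 taken off each value of -4.56 and -2.88, the knockdown call being lost (adjusted p = 0.164). The second probeset for PNMA8B read 33.3 and 30.6 in knockdown, 25.3 and 24.8 in NU7441 and 45.2 and 47.1 in control cells, with log2 differences of -0.88 under NU7441 and -0.53 in the knockdown. Here too the probeset used was the brighter one in control cells alone, and the mean of both gave -1.56 under NU7441 (adjusted p = 0.00186) and -1.17 in the knockdown, where the call was lost (adjusted p = 0.0539). The related PNMA8A read 34.7 and 33.2 in knockdown, 18.3 and 16.6 in NU7441 and 31.6 and 31.1 in control cells. PNMA8A fell under NU7441 (log2 fold change -0.85, adjusted p = 0.011) and was higher in knockdown than in NU7441 cells (0.96 ± 0.19, adjusted p = 0.019). PNMA5 fell under NU7441 by 0.70 (adjusted p = 0.0328), and PNMA1, PNMA2 and PNMA3, with 25 to 214 over all arrays, passed in no comparison.

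The PNMA8B window is shown for contrast with PRAMEF5, since probesets of both genes stood out in control cells. It lies at chr19:46495818-46496117 on the minus strand of GRCh38.p14 in RefSeq, with the GC box GGGCGG in capitals.
PNMA8B: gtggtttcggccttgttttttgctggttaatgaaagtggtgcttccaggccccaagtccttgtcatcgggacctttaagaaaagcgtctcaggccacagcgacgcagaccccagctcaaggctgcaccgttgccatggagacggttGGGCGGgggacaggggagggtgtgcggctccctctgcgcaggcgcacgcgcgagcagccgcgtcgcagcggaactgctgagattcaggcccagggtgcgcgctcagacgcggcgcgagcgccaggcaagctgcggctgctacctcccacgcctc
It holds 27 CpG and a GC box, where the PRAMEF5 window holds 5 CpG and no GC box.

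Of 27 TEX genes, 1 rose and 6 (22.2%) fell under NU7441, a share near the 22.4% of all genes. In the knockdown limma called 0 of them, and at an unadjusted p under 0.05 there were 0 higher and 3 lower (11.1%), where all genes had 12.9% lower. TEX30 had the widest change, with 216 and 167 in knockdown cells, 16 and 76.4 in NU7441 cells, and 198 and 202 in control cells. Both NU7441 arrays lay below all others but far apart, and knockdown overlapped control. TEX30 fell by 2.52 ± 0.56 under NU7441 (adjusted p = 0.0101) and was higher in knockdown than in NU7441 cells by 2.44 ± 0.56 (adjusted p = 0.0309). With 16 taken off each value the call under NU7441 was lost (adjusted p = 0.0748), as it was without either control array. Without NU7441 replicate 1 the log2 difference from control was -1.39 and that of knockdown from NU7441 cells 1.31, and without NU7441 replicate 2 they were -3.64 and 3.57. The second call was lost under 7 of 16 other ways of processing, among them the offset taken off, no trend, the compared groups alone and each control or knockdown array left out.

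TEX264, a receptor for autophagy of the endoplasmic reticulum, read 151 and 139 in knockdown, 162 and 168 in NU7441 and 109.6 and 120 in control cells. It rose by 0.53 ± 0.18 under NU7441 (adjusted p = 0.046), and its knockdown difference of 0.34 did not pass (adjusted p = 0.322). TEX261 read 74.1 and 95.1 in knockdown, against 33.8 and 46.1 in NU7441 cells, and was higher in the knockdown (log2 difference 1.09 ± 0.27, adjusted p = 0.0397). This call was lost under 10 of the 16, both scalings among them, and without any 1 control or knockdown array. Neither treatment moved it past the threshold against control, where it read 71.4 and 54.2.

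The remaining TEX genes that fell under NU7441 ended near the floor. TEX46 read 17.0 and 23.7 in NU7441 cells, against 42.2 and 45.4 in control cells (log2 fold change -1.12, adjusted p = 0.00638), and TEX22 read 17.2 and 17.4 against 31.8 and 33.2 (-0.91, adjusted p = 0.00549). TEX11, an X-linked gene needed for meiotic recombination in male mice, read 19.6 and 16 against 30.4 and 29.4 (-0.75, adjusted p = 0.0204). TEX50 read 16.4 and 16 against 24.2 and 25.4 (-0.61, adjusted p = 0.0143). The other 19 TEX genes, among them the kinase-like intercellular bridge gene TEX14 and the transposon-related germline gene TEX19, lay between 16 and 170 over all arrays and passed in no comparison.

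Over the array, the share of genes that rose under NU7441 went up with brightness, and so did, less steeply, the share that fell. With a mean log2 intensity at or below 5, 0.729% of genes rose and 20.0% fell, and above 8 it was 39% and 28.5%. Of the 38 members with a mean at or below 32, 0 rose and 9 fell under NU7441 by limma (0 and 13 at an unadjusted p under 0.05), a share of 23.7% beside 20.0% of all 6172 genes that dim. The 6 members above a mean log2 of 8, the GAGE copies, all rose and 0 fell. Among the 16 X-linked members 7 rose (43.8%) and 2 fell (12.5%) under NU7441, beside 10.8% and 22.4% of all genes. Without the 7 GAGE genes it was 1 and 2 of 9 (11.1% and 22.2%), near the shares of all genes. In all, 23 members passed in at least 1 comparison and 42 in none, and 36 of those 42 stayed at or below 64 on every array.

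**Figure D4:**
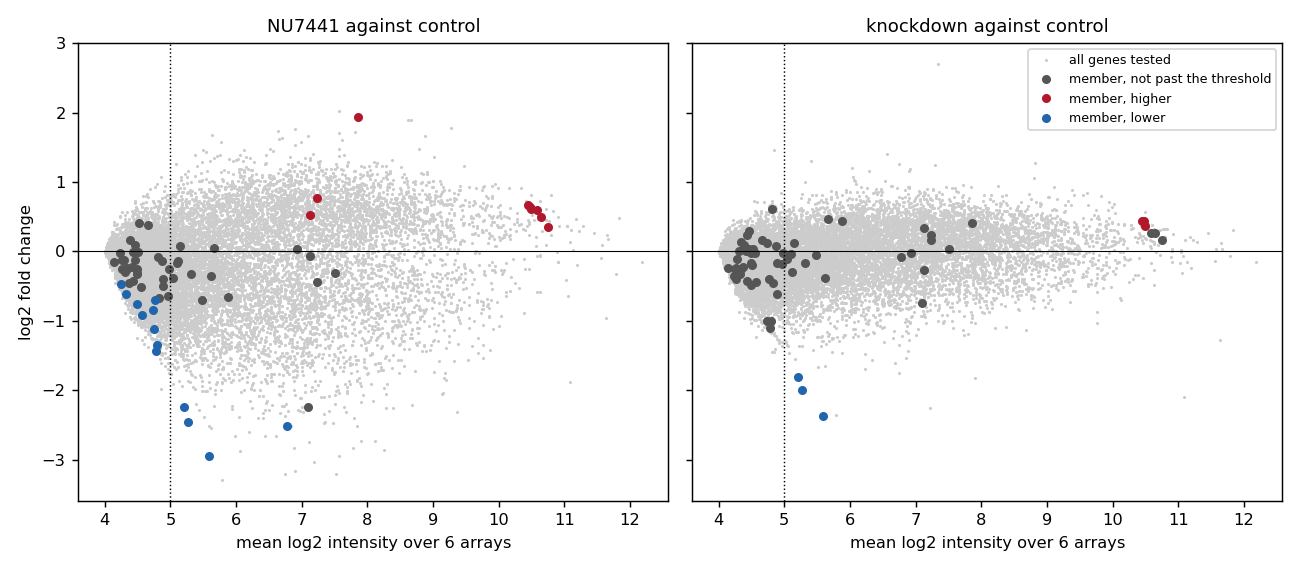
Log2 fold change against mean log2 intensity over the 6 arrays for all 14812 genes (small grey dots) and the 65 members (red higher, blue lower, dark grey not past the threshold), under NU7441 on the left and in the knockdown on the right. Members with a mean log2 at or below 5 lie mostly below 0 under NU7441, and the 6 bright GAGE genes lie above it.

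The lists outside these families are read against the 33.2% of all genes called under NU7441, 10.8% higher and 22.4% lower. That share ran from 20.7% of genes with a mean log2 at or below 5 to 67.5% above 8. The lists were not matched for brightness. Of 29 measured of 38 further meiosis genes, 2 rose and 4 fell, 20.7% in all. MND1 and PSMC3IP, whose proteins form the Hop2-Mnd1 complex that aids strand exchange, had log2 fold changes of -2.46 ± 0.25 (adjusted p = 0.000538) and -1.57 ± 0.21 (adjusted p = 0.00137). TRIP13, an ATPase that remodels HORMA domain proteins, fell as well (-1.09), and so did IHO1 (-0.73), a factor of meiotic break formation in mice. SUN1, which links telomeres to the nuclear envelope, rose (0.80), as did MSH5 (0.76), a crossover factor. Set against NU7441 cells, knockdown cells had more MND1 (log2 difference 1.64), PSMC3IP (1.03) and TRIP13 (1.17) and less SUN1 (-0.71), all past the threshold.

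The piRNA pathway keeps transposons silent in germ cells. Of 15 measured of its 20 listed genes, 0 rose and 3 fell under NU7441 by limma (1 and 4 at an unadjusted p under 0.05), 20% in all, namely TDRD12 (log2 fold change -1.16), HENMT1 (-0.89) and PIWIL4 (-0.82). TDRD12 was higher in knockdown than in NU7441 cells (0.74). Of 30 measured of 40 other cancer-testis antigens, limma called 0 higher and 4 lower, 13.3% in all (2 and 5 unadjusted), with log2 fold changes of -1.33 for the sperm tail and centriole gene ODF2, -0.89 for ODF4, -0.66 for SAGE1 and -0.60 for PASD1. ODF2 was higher in knockdown than in NU7441 cells (1.06).

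Of 16 measured of 20 genes that act in silencing germline genes, 3 rose and 5 fell under NU7441, 50% in all. DNMT1, the maintenance DNA methyltransferase, had a log2 fold change of -1.0 ± 0.17 (adjusted p = 0.00325), and UHRF1, which recruits it, -1.05 ± 0.25 (adjusted p = 0.0128). CBX3, a heterochromatin protein, MPHOSPH8 of the HUSH complex and MAX, the partner of MGA at E-boxes, had -1.06, -1.14 and -1.04. KDM5C rose (0.74), as did MGA (0.63) and TRIM28 (0.45). CBX3 was higher in knockdown than in NU7441 cells (0.81). Of 13 measured of 16 partners of MAGE proteins, 3 rose and 3 fell, 46.2% in all. NSMCE3, a MAGE family subunit of the SMC5/6 complex, and NSMCE4A of the same complex had log2 fold changes of -1.52 and -1.39, and TRIM27, a ubiquitin ligase, -0.72. VPS35, TRIM28 and NSMCE1 rose by 0.47, 0.45 and 0.39. NSMCE3 was higher in knockdown than in NU7441 cells (1.25).

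In the knockdown against control, limma called 0 genes in each of these 5 lists, and at an unadjusted p under 0.05 there were 0 higher and 7 lower meiosis genes, 0 and 1 piRNA genes, 0 and 5 other antigens, 0 and 5 silencing genes, and 1 and 2 MAGE partners. Over all genes 6.68% were higher and 12.9% lower at that level.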

How the data were processed

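RNA from 6 cultures of C4-2 cells was amplified to cDNA, labelled with biotin and hybridised to Human Gene 2.0 ST arrays, per the labels' protocols. The authors deposited intensities on a linear scale, a value for each probeset on each array, and none is below 16. How these were background-corrected and normalized, and on which build the probes were designed, is not given in the sources used here. All 6 value columns belonged to a sample (0 columns of no sample).

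Of 44629 probesets, 15835 carried 1 gene symbol in the platform annotation, and all of their gene identifiers matched the GRCh38.p14 gene table. The other 28794 were unnamed and left out. The brightest probeset was kept for the 651 genes with more than 1, which left 14812 genes with no filter on brightness. Log2 intensities were fitted with limma 3.58.1 in R 4.3.3, as 1 model over all 6 arrays with 3 residual degrees of freedom and a mean-variance trend. Tests were two-sided with Benjamini-Hochberg adjustment over all genes and a threshold of 0.05, and values after ± are moderated standard errors (n = 2 arrays per group). On simulated data for NU7441 against control (14812 genes, 200 changed, 5 draws) the procedure recovered 14.8% of genes changed 1.5-fold, 69.6% at 2-fold and 98% at 3-fold, with 7.78% of calls false. The simulation used the same spread in all 3 groups and far fewer changed genes than were called here. Its rates may therefore not hold for these arrays. The number of arrays limits the precision.

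The members, the gene lists and the cell type markers were chosen with earlier results of these data known. Values are given for each member past the threshold in any comparison, for its neighbours in the same family and for members with several probesets, and the others by range. Up to 3 genes per direction are named from each list outside the members, with a few more called ones named after their values were seen. Windows of 51 of the 65 members were found in the RefSeq promoter table. Tables and figures used Python 3.11.15, pandas 2.3.3, matplotlib 3.10.9 and Biopython 1.88. Alternatives were other scalings, an offset taken off, a filter on dim genes, other fits, other probeset rules and each array left out.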

Additional observations from a re-analysis of the deposited data

How the results depend on the processing

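Of 33 calls of single members over the 3 comparisons, 9 held under all 16 alternatives, 24 were lost under at least 1 and 0 changed sign. The 9 were the NU7441 calls of SYCE3, GAGE12G, GAGE12H, GAGE12J, GAGE13, PRAMEF22, PRAMEF5 and PNMA8B, and of PRAMEF19 apart from the filter that left it out of the test. Except where named, the cause was not tested.

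For NU7441 against control (22 calls, 13 lower), leaving out genes with a mean log2 of 5 or less gave 13 and 4 because fewer members were tested, and leaving out 1 array gave 11 to 34 and 4 to 21. Quantile normalization and median centring each gave 8 lower. Over all genes, 4917 calls became 3899 with the filter on dim genes, 4154 with quantile normalization and 4396 with median centring. The members' median of -0.26 became -0.031 and 0.06 under these scalings, which also moved the median of all genes from -0.23 to 0.01 and 0.08. With 16 taken off each value the members' median was -0.91.

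For knockdown against control (6 calls, 3 higher and 3 lower), the offset gave 0 calls (0 and 0), no trend gave 1 (0 and 1), the compared groups alone 15 (7 and 8) and array weights 16 (7 and 9). Over all genes these 4 fits called 3, 4, 2843 and 2663 of 14812, against 114 in the main fit. The mean of all probesets gave 3 calls, 1 of them lower, and median centring 5 higher. Leaving out 1 array gave 0 to 15 calls, 0 to 7 higher and 0 to 8 lower.

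For knockdown against NU7441 (5 calls, 3 higher and 2 lower), median centring gave 10 calls with 8 lower, the offset 3 with 1 higher and a median of 0.44, no trend and array weights 3 each with 1 lower, and the compared groups alone 2 with 0 higher. Over all genes these fits called 1528, 855, 820, 975 and 472, in that order, against 1284 in the main fit. The filter on dim genes gave 4 lower. Leaving out 1 array gave 0 to 15 calls, 0 to 8 higher and 0 to 7 lower.

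The differences between replicates 1 and 2 showed no pattern shared between groups, correlating at -0.00516, -0.0126 and -0.0676 over genes. These values do not show how the cultures were run, and the labels do not say whether replicate numbers pair the arrays. With the replicate number as a block, calls were 22 under NU7441, 3 in the knockdown and 4 between the treatments. In the knockdown 0 were higher, with GAGE12G, GAGE12H and GAGE12J lost at adjusted p = 0.0716, 0.0716 and 0.0927. Over all genes the block gave 4490, 37 and 1025 calls, against 4917, 114 and 1284 without it.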

Other observations

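The name pattern also matched 4 long noncoding RNAs that are not among the 65 genes. TEX41, TEX26-AS1, TEX36-AS1 and SPANXA2-OT1 lay between 16 and 32.4 on all arrays and passed the test in no comparison. Their log2 differences from control ran from -0.15 to 0.06 under NU7441 and from -0.48 to 0.33 in the knockdown.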
